A study of Homo sapiens with 12 samples.

Results

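Transcript levels of 29 enzymes of cholesterol and isoprenoid synthesis were followed across the study, out of 26372 gene symbols in the deposited tables. The genes were listed by name, in the order of the pathway, with earlier results of these data known. Of the 29, 28 matched a row by their symbol and ERG28 by its older symbol C14orf1. In at least 1 group, 28 reached 1 FPKM (fragments per kilobase of transcript scaled to the mapped fragments of a library) and were tested. FAXDC2 did not, with 0.253 FPKM at most. The genes were read in 3 groups: 7 enzymes from acetoacetyl-CoA to farnesyl diphosphate, 14 from squalene to cholesterol, and 8 that make nonsterol isoprenoids, attach isoprenoids to proteins or esterify cholesterol. The first 2 groups together are called the sterol route.

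The cells were HCT116, a human colorectal carcinoma line, either wild type (WT) or with a knockout (KO) of KDM3A, a histone lysine demethylase. Mock cultures were kept in normal medium, and starved cultures were moved to medium without serum. Refed cells received fetal bovine serum after 24 h without it, and the time from serum to harvest was not given. Polyadenylated RNA was sequenced. The labels name 2 samples for each of the 6 groups, while the tables hold 1 column a group with no replicate number, so each group has 1 value and no replicate spread. How the knockout was made, whether it is 1 clone, and whether the samples came from separate cultures are not given in the sources used here.

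Cells build isoprenoids from acetyl-CoA by way of HMG-CoA and mevalonate, which ends in farnesyl diphosphate. From there, squalene synthase commits carbon to lanosterol and cholesterol, while other enzymes divert prenyl diphosphates to ubiquinone, dolichol and the lipid anchors of proteins such as RAS. Genes of the sterol route are classic targets of the SREBP transcription factors, which are processed and enter the nucleus when membrane sterol is low, and NF-Y and Sp1 are known to act beside SREBP at many of these promoters. Serum carries cholesterol in lipoproteins.

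Because the sterol route is known for SREBP acting with NF-Y, the promoters of 4 members are shown as examples set by hand. For 3 of them the transcript rose in the KO and in starved cells. For PMVK no averaged comparison passed the test on the deposited scale. Of the HMGCS1 windows the one with more CCAAT is shown, so the contrast between the 4 is not a result. Each line gives the 250 bases before the RefSeq start in GRCh38.p14, 5′ to 3′ on the strand of the gene, with every CCAAT (the NF-Y motif) or its reverse complement ATTGG in capitals. The windows are chr5:43313413-43313662 on the minus strand for HMGCS1 (1 of its 2 windows), chr16:88663092-88663341 minus for MVD, chrX:48521558-48521807 plus for EBP and chr1:154936720-154936969 minus for PMVK.
HMGCS1: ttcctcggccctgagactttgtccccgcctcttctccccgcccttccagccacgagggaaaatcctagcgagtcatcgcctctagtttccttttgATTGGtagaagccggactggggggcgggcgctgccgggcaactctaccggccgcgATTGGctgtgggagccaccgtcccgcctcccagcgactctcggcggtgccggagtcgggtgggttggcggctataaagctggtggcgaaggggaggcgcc
MVD: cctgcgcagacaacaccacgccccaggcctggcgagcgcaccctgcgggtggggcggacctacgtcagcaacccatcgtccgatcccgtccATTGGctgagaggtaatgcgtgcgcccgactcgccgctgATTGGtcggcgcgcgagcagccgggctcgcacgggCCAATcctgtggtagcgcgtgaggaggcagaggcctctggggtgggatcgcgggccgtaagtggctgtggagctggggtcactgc
EBP: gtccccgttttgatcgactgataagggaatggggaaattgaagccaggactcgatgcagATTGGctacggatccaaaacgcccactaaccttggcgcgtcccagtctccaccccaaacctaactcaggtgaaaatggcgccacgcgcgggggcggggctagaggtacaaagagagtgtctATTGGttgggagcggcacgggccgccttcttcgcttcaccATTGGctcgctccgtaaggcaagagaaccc
PMVK: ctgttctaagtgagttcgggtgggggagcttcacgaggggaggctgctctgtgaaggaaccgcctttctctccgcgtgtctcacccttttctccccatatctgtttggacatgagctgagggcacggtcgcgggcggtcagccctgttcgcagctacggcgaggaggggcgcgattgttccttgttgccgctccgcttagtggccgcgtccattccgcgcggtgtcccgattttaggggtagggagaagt

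In these windows HMGCS1 held CCAAT in 2 places, MVD in 3 and EBP in 3, and PMVK held none. The 4 do not stand for all members. The other HMGCS1 window held none, CYP51A1 held none although its transcript was 2-fold higher in KO in each state, and TM7SF2, GGPS1 and FNTB, which were not called in KO, each held CCAAT in a window. RefSeq windows, which run from 250 bases before to 50 after the start, existed for 25 of the 29 members. On either strand, CCAAT occurred in 18 of the 25 (72%), against 39.7% of all 27305 genes with a window and 43.0% of the 9704 tested genes with one. Of the 178 tested genes with a window that rose both in KO and in starved cells, 41.6% held it. On the sterol route CCAAT occurred in 14 of 18 members, and among nonsterol members in 4 of 7. GGGCGG, the Sp1 motif, occurred in 21 of 25 (84%), against 77.9% of tested genes, and CACGTG, the E-box, in 4 of 25 (16%) against 12.6%. TCACNCCAC, a core of the sterol regulatory element, occurred in 0 of 25, against 1.43% of tested genes. The shorter CACNCCAC, which lies within it and was added after the first search, occurred in 2 of 25, in IDI1 and SC5D, against 7.67%. These are matches of letters in short windows, described without a test.

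KDM3A itself was at 41.3, 17.8 and 19.8 FPKM in mock, starved and refed WT cells and at 3.15, 3.01 and 3.59 FPKM in the KO groups. Of 12 epithelial markers, 8 or 9 reached 1 FPKM in each group, and VIL1, CEACAM5 and LGALS4 reached it in none. The 12 summed to between 2269 and 2716 FPKM in WT cells, against between 4960 and 6137 FPKM in KO groups. KRT8, KRT18 and KRT19 made up most of that sum, with KRT8 at 1011 FPKM in WT mock and 2425 FPKM in KO mock. In the same columns EPCAM was at 176 and 203 FPKM, CDX2 at 7.51 and 7.10 FPKM and KRT20 at 1.19 and 0.37 FPKM. The WT mock column stood apart in 1 respect: 16 of 18 endothelial markers reached 1 FPKM there and 2 of 18 in each other group. These markers summed to 303 FPKM in WT mock against 49.2 to 90.3 elsewhere. The 4 highest there were EGFL7 at 77.2, VWF at 75.9, ENG at 33.2 and CDH5 at 25.8 FPKM. EGFL7 was not particular to that column, at 84.3 FPKM in KO mock and 44.2 to 65.1 FPKM elsewhere, while VWF, ENG and CDH5 were under 1 FPKM in every other group. None of the 29 members (0) both reached 5 FPKM in WT mock and was 4-fold above all other groups there. Most sterol-route members were lowest in that column, so this count cannot show whether the endothelial signal touches their values. The part of this signal in any mock comparison was not tested, so results are also given without that column. Fibroblast markers reached 1 FPKM for 2 of 10 genes and leukocyte markers for 1 of 8 in each group. Genes listed at 0 numbered 4300 and 4301 in starved and refed WT and 6401 to 7312 in the other groups. Sequencing depth is unknown, since the tables hold FPKM only. In bulk RNA, fewer cells of a type and less RNA per cell cannot be told apart.

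All differences below are on the log2(FPKM + 1) scale, which understates changes of low genes, with the median over all 13456 tested features in that comparison subtracted. That median was 0.16 for KO minus WT, -0.13 for starved minus mock, -0.01 for refed minus starved and -0.12 for refed minus mock. Standard errors (SE) and adjusted p-values come from limma with additive terms for genotype and culture state, with Benjamini-Hochberg adjustment over all tested features on the deposited scale. With 1 value a group, the residual of this fit is the unevenness of a difference across states or genotypes, with 2 degrees of freedom. The fit also draws each gene's variance toward a trend over all features, so SE and p-value rest in part on other genes. The p-value measures unevenness of this kind and not replicate error. The test was run on differences with no median subtracted, so each p-value belongs to the unsubtracted difference and not to the printed one. A gene rose or fell, by the sign of the unsubtracted difference, where the adjusted p was under 0.05.

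**Figure D1:**
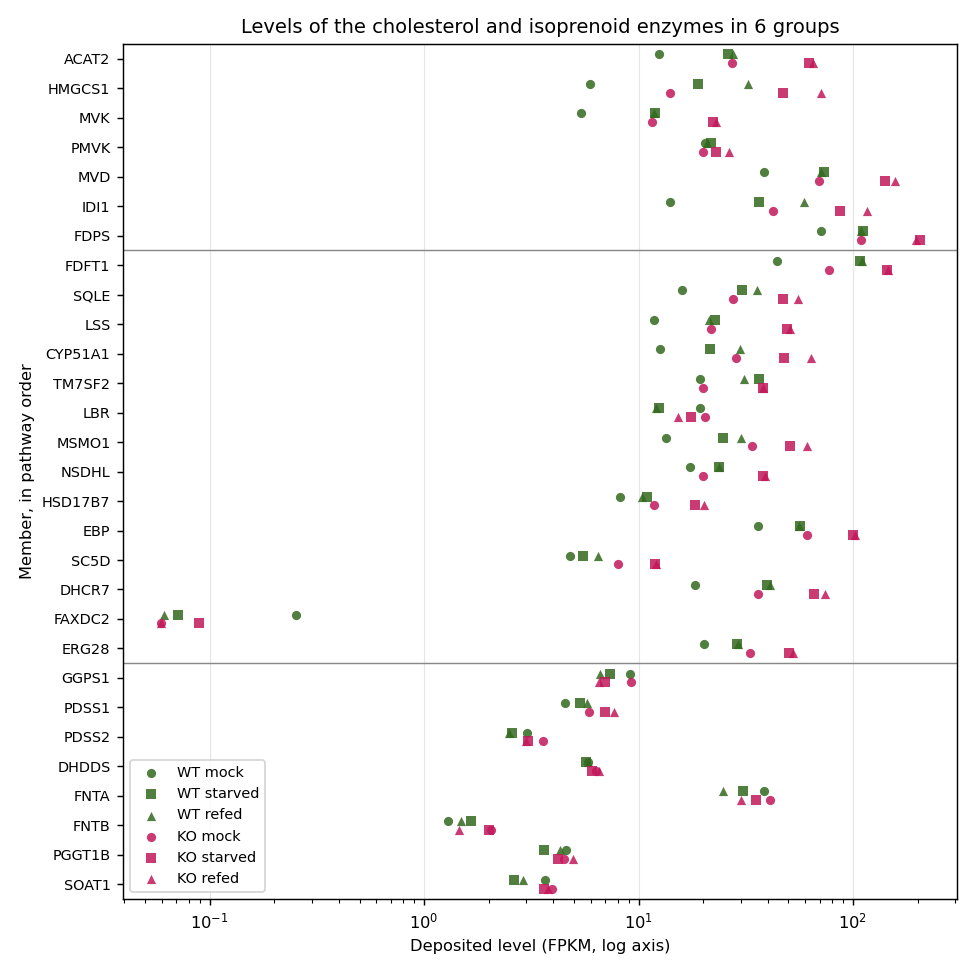
Deposited FPKM of each member in the 6 groups, on a log axis, with members in pathway order and 1 point per group. On the sterol route KO points lie above WT points of the same state for most members, and TM7SF2, LBR, PMVK and the nonsterol members lie close together.

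KO cells carried more transcript of most sterol-route enzymes than WT cells in all 3 culture states. Averaged over states, 18 of the 28 tested members rose in KO and 0 fell, where 28.7% of all features rose and 4.58% fell. After rescaling the columns by median ratios, which took the calls over all features from 3867 up and 616 down to 1651 up and 1454 down, 15 members rose and FDFT1, NSDHL and PDSS1 no longer did. Without the WT mock column 20 members rose, with LBR and SOAT1 added, where the calls over all features went to 5039 up and 674 down. Without WT starved, WT refed, KO starved or KO refed, 0 members were called, in fits with 1 residual degree of freedom, while the sterol-route median stayed between 0.64 and 0.67. On the sterol route 17 of 20 tested members rose, with a median difference of 0.65 relative to all features. In the nonsterol group 1 of 8 rose, with a median of 0.02.

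**Figure D2:**
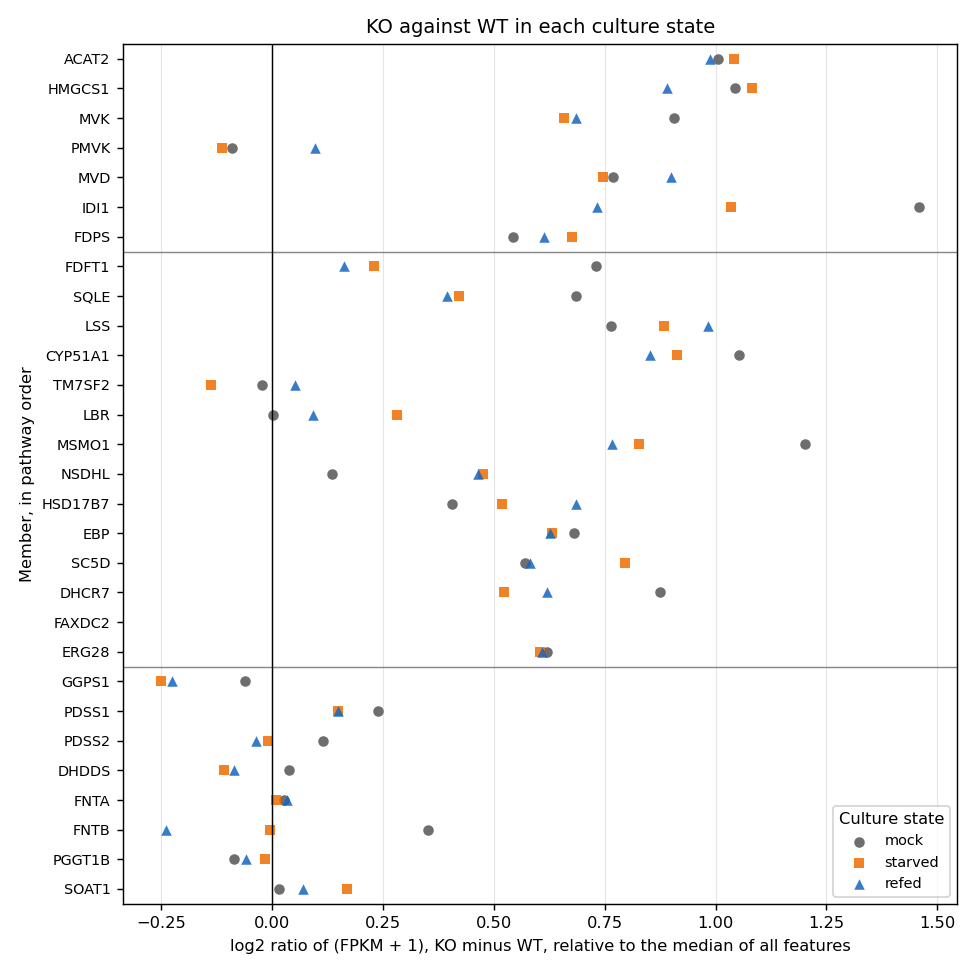
Difference of KO minus WT on the log2(FPKM + 1) scale, relative to the median of all features, for each tested member in mock, starved and refed cells. The upper route is centred near 0.8 and the nonsterol members near 0, and IDI1, FNTB and FDFT1 show the widest spread over the 3 states.

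Within the upper route, 6 of 7 enzymes rose in KO, at a median of 0.81. ACAT2, the thiolase that makes acetoacetyl-CoA, was at 12.4, 26.1 and 27.5 FPKM in mock, starved and refed WT and at 27.3, 62.6 and 65.0 FPKM in KO. Its KO value was at least 2-fold the WT value in each state, and the averaged difference was 1.01 (SE 0.07, adjusted p = 0.0028 by limma). HMGCS1, the cytosolic HMG-CoA synthase, was at 5.93, 18.98 and 32.4 FPKM in WT cells, against 13.98, 47.1 and 71.3 FPKM in KO, and also differed by 1.01 (SE 0.06). The lowest value of both genes was WT mock and the highest KO refed. IDI1, which isomerises isopentenyl diphosphate, differed by 1.08 (SE 0.12, adjusted p = 0.0074 by limma). Without WT mock that value was 0.88, below ACAT2 at 1.02 and HMGCS1 at 0.99. It was at 14.01, 36.5 and 59.3 FPKM in WT cells, against 42.3, 86.6 and 116 FPKM in KO, and the difference was 1.46 in mock, 1.04 in starved and 0.73 in refed cells.

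The mevalonate kinase MVK was at 5.37, 11.98 and 11.8 FPKM in WT cells, against 11.5, 22.3 and 23.1 FPKM in KO, a difference of 0.75. MVD, the decarboxylase that forms isopentenyl diphosphate, was at 38.6, 73.4 and 71.2 FPKM in WT cells, against 69.6, 141 and 156 FPKM in KO, a difference of 0.81. The most abundant member in WT mock cells was FDPS, the farnesyl diphosphate synthase, at 70.7, 112 and 109 FPKM in WT cells, against 109, 204 and 196 FPKM in KO, a difference of 0.61. In each of these the KO value exceeded the WT value of the same state. PMVK, the phosphomevalonate kinase between MVK and MVD, did not follow: it was at 20.3, 21.8 and 20.9 FPKM in WT cells, against 20.0002, 22.96 and 26.3 FPKM in KO, an averaged difference of -0.03 (SE 0.09, adjusted p = 0.308 by limma).

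From squalene to cholesterol, 11 of 13 tested enzymes rose in KO, at a median of 0.61. CYP51A1, the lanosterol demethylase, was at 12.6, 21.6 and 29.6 FPKM in WT cells, against 28.6, 47.5 and 63.5 FPKM in KO, a difference of 0.94 (SE 0.06, adjusted p = 0.0025 by limma). It was at least 2-fold higher in KO in each state. MSMO1, which oxidises methyl groups of the sterol ring, was at 13.5, 24.7 and 30.2 FPKM in WT cells, against 33.9, 50.8 and 61.0 FPKM in KO, a difference of 0.93. LSS, the lanosterol synthase, was at 11.7, 22.8 and 21.4 FPKM in WT cells, against 21.7, 49.0 and 50.6 FPKM in KO, a difference of 0.88.

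Squalene itself is made by FDFT1 and oxidised by SQLE. FDFT1 was at 44.1, 108 and 111 FPKM in WT cells, against 77.5, 144 and 145 FPKM in KO. Its difference was 0.73 in mock cells but 0.23 in starved and 0.16 in refed cells, and it was a call that median-ratio rescaling removed. SQLE was at 15.9, 30.4 and 35.6 FPKM in WT cells, against 27.5, 46.9 and 55.1 FPKM in KO, an averaged difference of 0.50.

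EBP and ERG28 were higher in KO by near-equal amounts in the 3 states. EBP, the sterol isomerase, was at 36.1, 56.5 and 56.1 FPKM in WT cells, against 61.3, 100.3 and 102 FPKM in KO, with differences of 0.68, 0.63 and 0.63 by state. ERG28, a scaffold of the demethylating enzymes, was at 20.1, 28.7 and 28.98 FPKM in WT cells, against 33.1, 50.3 and 52.4 FPKM in KO, with differences of 0.62, 0.60 and 0.61. DHCR7, the reductase of a last step, was at 18.4, 39.7 and 40.8 FPKM in WT cells, against 36.2, 65.6 and 74.1 FPKM in KO, an averaged 0.67. All 3 rose with KO above WT in each state. SC5D, a sterol desaturase and the least abundant tested member of the sterol route in WT mock, was at 4.81, 5.52 and 6.47 FPKM in WT cells, against 8.04, 11.9 and 12.1 FPKM in KO, a difference of 0.65. HSD17B7, a ketosteroid reductase, was at 8.17, 10.9 and 10.3 FPKM in WT cells, against 11.7, 18.4 and 20.3 FPKM in KO, a difference of 0.54. NSDHL, the dehydrogenase that acts with it, was at 17.3, 23.8 and 23.7 FPKM in WT cells, against 20.1, 38.2 and 38.8 FPKM in KO. Its difference was 0.14 in mock and 0.48 and 0.46 in starved and refed cells, the reverse of the order seen for FDFT1.

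TM7SF2 and LBR are sterol reductases that act on the same double bond, and LBR is also the lamin B receptor of the nuclear envelope. Neither rose in KO. TM7SF2 was at 19.3, 36.6 and 31.2 FPKM in WT cells, against 19.9, 37.9 and 37.9 FPKM in KO (difference -0.03, adjusted p = 0.257 by limma). LBR was at 19.4, 12.4 and 12.1 FPKM in WT cells, against 20.4, 17.6 and 15.3 FPKM in KO. Its difference was 0.13, or 0.29 with no median subtracted (adjusted p = 0.0747 by limma), and it passed the test without WT mock. FAXDC2, a relative of the sterol hydroxylases, was at 0.253, 0.0715 and 0.0614 FPKM in WT cells, against 0.0594, 0.0889 and 0.0595 FPKM in KO and was not tested.

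Among the nonsterol enzymes only PDSS1, which with PDSS2 builds the side chain of ubiquinone, rose in KO on the deposited scale. It was at 4.54, 5.34 and 5.72 FPKM in WT cells, against 5.86, 7.004 and 7.71 FPKM in KO. The difference was 0.18, or 0.34 with no median subtracted (SE 0.05, adjusted p = 0.0150 by limma), and was not called after rescaling. PDSS2 was between 2.49 and 3.57 FPKM in all 6 groups. GGPS1, which makes geranylgeranyl diphosphate, was at 9.13, 7.34 and 6.59 FPKM in WT cells, against 9.18, 6.98 and 6.57 FPKM in KO, the values of a state nearly equal. DHDDS, a dolichol synthase subunit, ranged from 5.70 to 6.51 FPKM and SOAT1, which esterifies cholesterol, from 2.62 to 3.95 FPKM. The prenyltransferase subunits FNTA, FNTB and PGGT1B differed by 0.02, 0.04 and -0.05 between genotypes. FNTB was the lowest of these, from 1.29 to 2.06 FPKM, and PGGT1B ranged from 3.63 to 4.95 FPKM.

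In single states, with no test possible, 5 members were 2-fold or more higher in KO in mock cells (2.27% of all features), 6 in starved cells (2.59%) and 5 in refed cells (3.41%). ACAT2, HMGCS1 and CYP51A1 were among them in every state. These counts are on the deposited scale. After median-ratio rescaling the starved count was 2 and the refed count 0, with the share over all features not counted on that scale.

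Serum withdrawal went with higher levels of the same route in both genotypes. Averaged over genotypes, 17 of 28 members rose from mock to starved and 1 fell, where 5.83% of all features rose and 19.4% fell. After median-ratio rescaling 20 rose, adding PDSS1, PMVK and SC5D, and 0 fell, where 2050 of all 13456 features rose and 1954 fell. With no filter on low values 0 rose and 0 fell. The sterol route had a median difference of 0.93, with 6 of 7 upper enzymes and 11 of 13 lower enzymes risen, against a median of -0.04 and 0 of 8 risen in the nonsterol group. Without the WT mock column no member call held, and nearly all calls over all features were lost too. That fit holds only the KO column for mock, with 1 residual degree of freedom, and its sterol-route median was 0.93. The KO columns alone, which do not use WT mock, gave a median of 0.92, and the WT columns 1.05.

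HMGCS1 had the largest difference of the members between starved and mock cells, 1.73 (SE 0.08, adjusted p = 0.0170 by limma), at 1.72 in WT and 1.74 in KO. IDI1 differed by 1.30, ACAT2 by 1.22 and FDFT1 by 1.21. TM7SF2, for which no genotype difference was called, rose by 1.02 here. SC5D (0.47), PMVK (0.27) and LBR (-0.28, FPKM lower in starved than mock cells of both genotypes) were not called on the deposited scale. GGPS1 was the member that fell, by 0.19 relative to all features (-0.32 with no median subtracted, adjusted p = 0.0322 by limma). It was not called after rescaling.

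Counted without a test on the deposited scale, with no median subtracted, 6 members were 2-fold or more higher in starved than mock WT cells (1.03% of all features) and 5 in KO cells (0.951%). After median-ratio rescaling the counts were 11 in WT and 5 in KO. The share over all features was not counted on that scale, so this change cannot be read as particular to the members. ACAT2, HMGCS1 and IDI1 were in both counts on the deposited scale. Relative to all features, FDFT1 differed by 1.46 in WT and 0.94 in KO, the widest gap of the sterol route, and for NSDHL it was 0.63 and 0.95, the widest gap the other way. Over the 20 tested sterol-route members the KO response minus the WT response had a median of -0.04, from -0.52 to 0.33. No residual is left to test it.

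**Figure D3:**
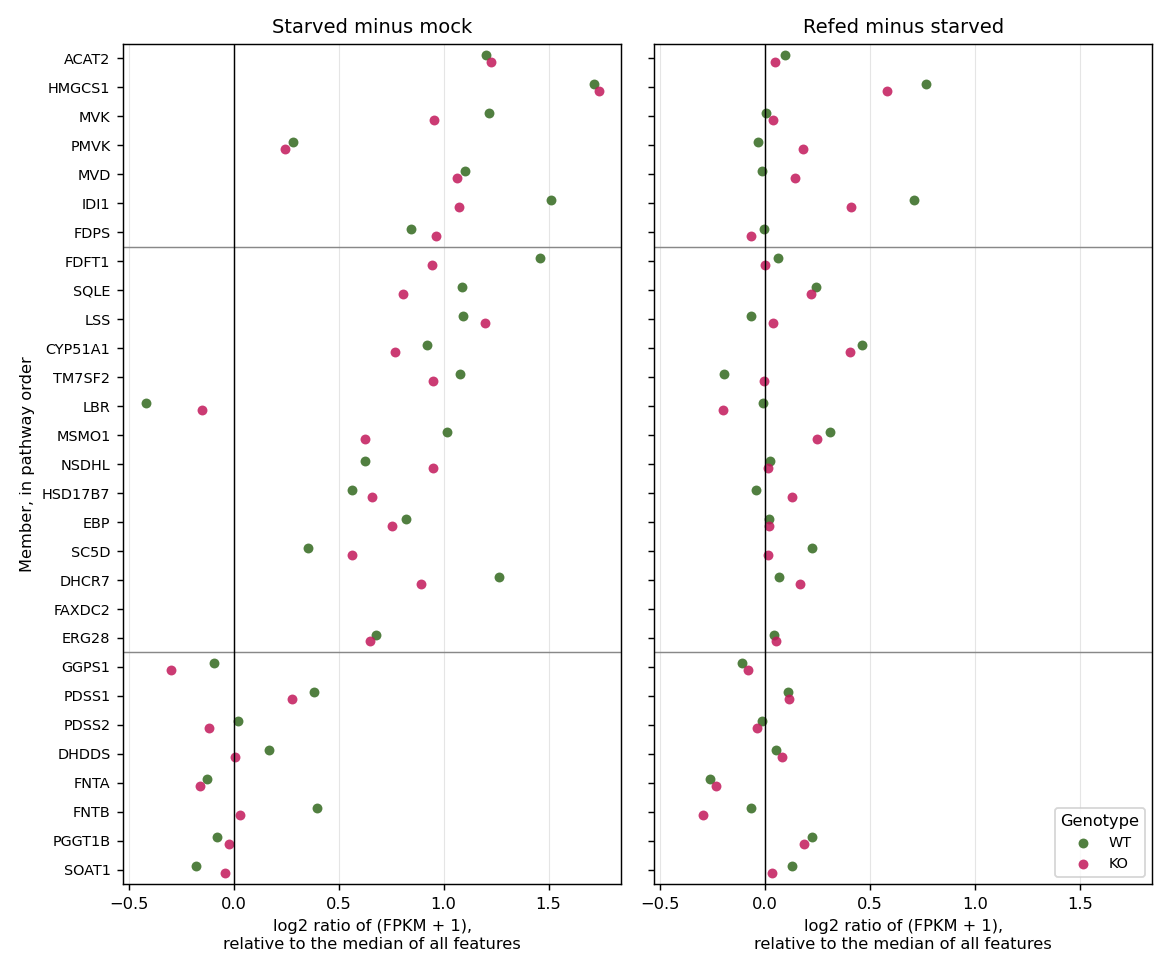
Differences of starved minus mock and of refed minus starved on the log2(FPKM + 1) scale, relative to the median of all features, for each tested member in WT and KO cells. Most sterol-route members lie well above 0 for starvation and near 0 for serum return, where HMGCS1, IDI1 and CYP51A1 lie highest.

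Adding serum back did not bring the route down to its mock level in these columns. Between starved and refed cells 0 of 28 members rose and 0 fell by the limma fit, where 0.773% of all features rose and 0.052% fell, and 6 members had an unadjusted p under 0.05. The sterol-route median was 0.06. Higher in refed cells were HMGCS1 by 0.68 (adjusted p = 0.0608 by limma), IDI1 by 0.56 and CYP51A1 by 0.44, in both genotypes, though none of these was called. HMGCS1 was called with a pseudocount of 0.1, with a filter of 5 FPKM or without short RNA features. FNTA, the shared subunit of the farnesyl and geranylgeranyl transferases, was lower in refed cells by 0.24 without a call. No member was 2-fold higher in refed than starved cells, 0 in WT (1.69% of features) and 0 in KO (1.98%).

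Compared with mock cells, refed cells had 19 members risen and 3 fallen, where 8.10% of all features rose and 21.2% fell. Without WT mock none of these calls held, and nearly all calls over all features were lost too. That fit holds only the KO column for mock, and its sterol-route median was 0.95 in place of 1.10. HMGCS1 differed by 2.39 (SE 0.08, adjusted p = 0.0077 by limma), IDI1 by 1.84 and ACAT2 by 1.28. The 3 that fell were LBR, FNTA and GGPS1, by 0.40, 0.40 and 0.30 relative to all features. FNTA was at 38.4, 30.6 and 24.9 FPKM in mock, starved and refed WT and 41.1, 35.2 and 29.95 FPKM in KO, so it was highest in mock and lowest in refed cells of each genotype. On the deposited scale, in WT 9 members were 2-fold or more higher in refed than mock cells (1.89% of features) and in KO 7 (2.36%).

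**Figure D4:**
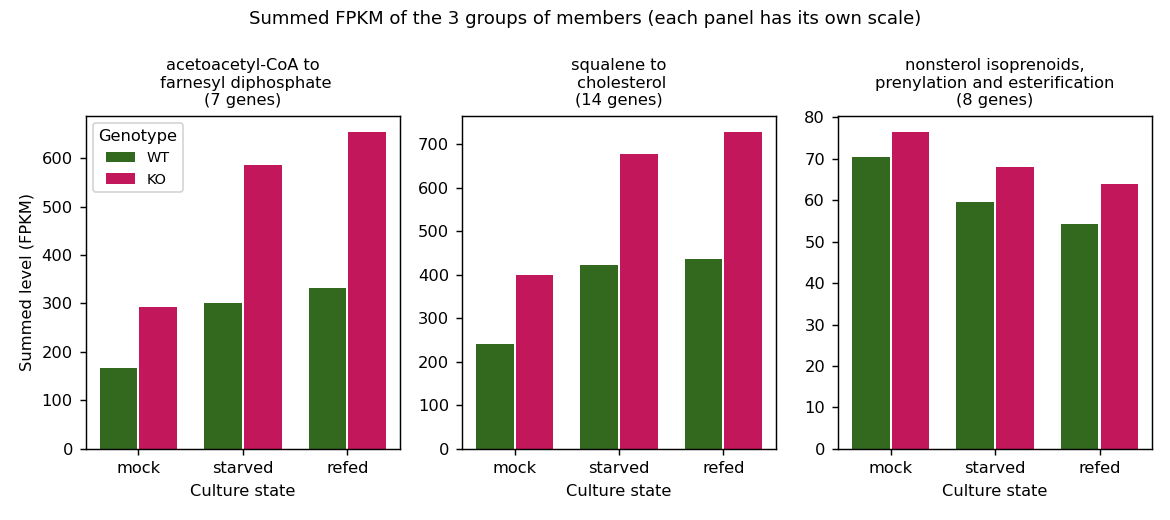
Summed FPKM of the 7 enzymes up to farnesyl diphosphate, the 14 from squalene to cholesterol and the 8 nonsterol members in the 6 groups, each panel on its own axis from 0. The upper and lower route rise from mock to starved cells in both genotypes and are higher in KO, while the nonsterol sum falls slightly from mock to refed cells.

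Summed over genes, the upper route held 167 FPKM in mock, 301 in starved and 332 in refed WT cells and 293, 587 and 654 FPKM in KO. The squalene-to-cholesterol enzymes summed to 242, 422 and 437 FPKM in WT cells, against 400.1, 679 and 728 FPKM in KO. On this deposited scale, with no median subtracted, KO mock cells sat near starved WT cells in both sums. Over all features without short RNA, KO mock summed to 565714 FPKM and starved WT to 459917 FPKM. The sums were not corrected for that difference between columns. The nonsterol members went from 70.4 to 59.5 and 54.2 FPKM in WT cells, against from 76.5 to 68.1 and 63.9 FPKM in KO. These sums are descriptions of 1 column each.

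Regulators and neighbours of the pathway were counted by lists chosen by name, with earlier results of these data known. SREBF2, which encodes the SREBP most tied to cholesterol, measured 29.6, 38.3 and 36.8 FPKM in WT cells, against 65.2, 62.5 and 67.1 FPKM in KO, and rose in KO by 0.73. SREBF1 was at 37.6, 53.8 and 48.9 FPKM in WT cells, against 62.4, 68.4 and 83.5 FPKM in KO. The sterol sensor SCAP was at 11.6, 12.8 and 11.4 FPKM in WT cells, against 14.6, 15.3 and 15.9 FPKM in KO. INSIG1, which retains SCAP in the endoplasmic reticulum, was at 12.2, 25.9 and 54.7 FPKM in WT cells, against 47.4, 64.8 and 124 FPKM in KO, a rise of 1.28 in KO. In all 3 states these 4 genes were higher in KO than in WT.

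Of 21 tested genes of sterol sensing, uptake and export, 14 rose and 1 fell in KO (9 and 2 after rescaling), and of 16 genes of fatty acid synthesis 14 rose and 0 fell (8 and 0). Of 21 other users of isoprenoids 10 rose and 1 fell (3 and 2). Among all 13456 features 28.7% rose and 4.58% fell in KO, and 1651 rose and 1454 fell after rescaling, so the last list's rescaled count is near that of all features. From mock to starved cells the counts of risen and fallen genes were 3 and 5, 7 and 3, and 2 and 2 for the 3 lists, where 5.83% of all features rose and 19.4% fell. After rescaling they were 5 and 2, 8 and 2, and 4 and 2. Without WT mock no call in these lists held, and nearly all calls over all features were lost too. Over all 13456 features, 2050 rose and 1954 fell from mock to starved cells after rescaling. FASN, the fatty acid synthase, rose by 0.88 in KO and by 1.07 in starved cells.

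Some members share sequence with other loci, and the counting and strand of the reads are not given in the sources used here. In GENCODE 29, 6 of 29 members have named pseudogenes, FDPS most with 8. The longest exon overlaps were on the same strand. CYP51A1 shares 2844 bases with AC000120.2, FNTB 1661 with the read-through gene CHURC1-FNTB and GGPS1 1422 with TBCE. On the opposite strand ACAT2 overlaps exons of TCP1 and SOD2, and MVK those of MMAB. The values of these members are less certain.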

How the data were processed

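RNA from 6 groups of HCT116 cells was analysed from 6 deposited tables, 1 FPKM column a group. The authors used FastQC, cutadapt, TopHat2 and hg19, per the submitters' processing notes, which give no versions; the program behind the deposited FPKM is not given in the sources used here. Columns were mapped to groups by name. Values were taken as log2(FPKM + 1). The 13456 features that reached 1 FPKM in any group were tested with limma 3.58.1 (R 4.3.3), genotype plus culture state. The fit was also run on simulated data with independent noise and additive genotype shifts. That run had no column-wide shifts or uneven responses, so it cannot show how the fit behaves where columns differ in these ways. Single comparisons were counted at 2-fold. Alternatives were a pseudocount of 0.1 or 5, no filter or one of 5 FPKM, median-ratio and upper-quartile rescaling, no short RNA, no mock state and each column left out. Members called in an averaged comparison, and the one below the filter, were described in full. The members and lists were chosen with earlier results of these data known. Promoters came from RefSeq (GRCh38.p14). Protein sequences were not used here. Depth is unknown, so no interval from counts is given. A further gene covered by the naming rule for context lists is not reported here.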

Additional observations from a re-analysis of the deposited data

How the results depend on the processing

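On the deposited scale the count of members that rose in KO was 15 to 20 under the other pseudocounts, filters and rescalings and without the mock state, and 0 fell. Leaving out 1 column at a time gave 0 to 20 members risen in KO (0 without WT starved, WT refed, KO starved or KO refed, 20 without either mock column), 0 to 16 risen from mock to starved, 0 to 2 fallen, and 0 to 16 risen and 0 to 3 fallen from mock to refed; each such fit has 1 residual degree of freedom. Without a filter on low values 0 members rose and 0 fell from mock to starved, over all features 4 and 3, and 16 rose in KO. From mock to starved the fallen count was 2 with a filter of 5 FPKM and 2 without short RNA, 0 with median-ratio rescaling and 0 with upper-quartile rescaling. From starved to refed 1 member was called with a pseudocount of 0.1, 1 with a filter of 5 FPKM and 1 without short RNA. After median-ratio rescaling, 2-fold counts were 2 for KO over WT in starved cells, 0 in refed cells, and 11 for starved over mock WT cells. The shares over all features were not counted on that scale. Without WT mock nearly all calls against mock were lost over all features too. The causes were not tested. The sterol-route median stayed between 0.61 and 0.79 in KO minus WT under these settings. No paired analysis was possible because each group has 1 value and its column carries no replicate number.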
